A study of Mus musculus with 4 samples.

Results

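Most of the genes described here encode motor and structural proteins of the sperm tail and of the transport system that builds it. They were chosen by symbol, as every feature of the gene exon sense category whose name begins with Dnah, Dnai, Dnal, Tekt, Spag or Rsph, or with Ift and a digit. This rule found 36 of the 12415 gene exon sense features, and 35 of them passed the filter on low counts. The exception was Dnahc5, which had no read in 2 of the libraries and 2 and 4 reads in the other two. The letter c in symbols such as Dnahc8, Dnaic1 and Dnalc4 belongs to older names of Dnah8, Dnai1 and Dnal4.

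Total testicular RNA from C57Bl/6J mice at 60 days of age was depleted of ribosomal RNA and sequenced in 4 strand-specific libraries, 2 from Nef-sp-/- and 2 from Nef-sp+/- testes. NEF-sp is a testis-specific exoribonuclease, and the comparison asks which testicular transcripts change when it is lost. The Nef-sp-/- mice carried a 23 bp deletion, which shifts the reading frame, on both alleles, and the Nef-sp+/- controls carried the same deletion on 1 allele. The genotypes are those of the sample labels and of the methods, while another passage of the study calls the controls wild-type. The former are called mutants and the latter controls. The deletion was made with Cas9 nickase in embryos, and the labels do not say whether the animals were littermates. The p-values weigh the difference between genotypes against the spread within each genotype of these 4 libraries.

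The tail of a sperm is built around an axoneme, a ring of doublet microtubules around a central pair. Outer and inner dynein arms are motors made of heavy, intermediate and light chains, and they slide neighbouring doublets past each other. Tektins are filament proteins of the doublet wall, radial spokes link the doublets to the central apparatus, and intraflagellar transport (IFT) trains, made of an A and a B complex, carry building material along the growing tail. In the testis, transcripts of such genes accumulate in meiotic and haploid germ cells.

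The libraries held between 20659865 and 34442517 reads, of which 15815159 to 26618821 were gene exon sense. Nef-sp (2610020H08Rik) had normalized counts of 1843 and 1693 in the controls and 407 and 497 in the mutants. Its log2 fold change of −1.97 (standard error, SE, 0.0921, adjusted p = 4.1e-06, edgeR) was the only one past the threshold among exon sense features. Normalized counts are counts scaled to a common effective library size. The 6 markers of elongating spermatids took 2.18% of the exon sense reads in Nef-sp+/- replicate 1 and 2.62% to 2.66% in the other libraries, so that Nef-sp+/- replicate 1 stood apart. Markers of spermatocytes took 0.102% to 0.119% of them, those of round spermatids 0.0799% to 0.0854% and those of Sertoli cells 0.0939% to 0.0990%, so that the defining cells of the testis were present. Leydig cell markers took 0.0960% and 0.0927% of them in the controls and 0.0877% and 0.0744% in the mutants. Of these 5 markers, Cyp17a1 and Cyp11a1 had log2 fold changes of −0.27 and −0.35, and Hsd3b1, Star and Insl3 had 0.15, 0.08 and 0.18. Of the markers of multiciliated cells, which line the efferent ducts and also use these genes, Ccno had 7 to 11 reads per library, while Foxj1 and Ccdc67 were well expressed. The only epididymal marker with a feature, Crisp1, had 5 reads in Nef-sp-/- replicate 1 and 0 elsewhere. In bulk tissue, fewer cells of a type and less RNA per cell cannot be told apart.

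None of the 35 genes tested passed the threshold between genotypes. No member had an adjusted p below 0.05 in the quasi-likelihood test of edgeR, against 0.00932% of all exon sense features tested, and the smallest adjusted p was 0.954. DESeq2 also called 0 members, against 0.0161% of all features. With edgeR 3 members had an unadjusted p below 0.05, namely Tekt2 and Dnahc9 with lower and Spag9 with higher values in Nef-sp-/-, and with DESeq2 only Tekt2 did. With edgeR that is 3 of 35, beside 4.8% of all features (2.83% lower and 1.97% higher). The share of all features with DESeq2 was not counted. Without Nef-sp+/- replicate 1, the library that stood apart, the log2 fold change of Tekt2 was −0.37. That fit leaves 1 control, so its spread within genotype comes from the mutants alone, and no call is taken from it.

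The differences between genotypes were small in the members. Their log2 fold changes of Nef-sp-/- over Nef-sp+/- ranged from −0.58 (Dnahc9) to 0.14 (Spag9), with a median of −0.02. Their median absolute value was 0.04, and that of all 10728 tested features was 0.07. The members were read more deeply, with a median normalized count of 2818 against 461 in the tested features with a gene model. The absolute values were not compared at equal depth. In 31 of the 35 genes the absolute value was below 0.1. The 95% interval included 0 in 32 genes and lay within 0.25 of 0 on either side in 27, which corresponds to a level 15.9% lower to 18.9% higher. In 28 genes at least 1 pair of replicates differed by more than the genotype means did. Single libraries vary more than means of 2 libraries, and the share over all features was not counted, so no conclusion is drawn from this number. Both mutant libraries lay above both controls in 6 of 35 genes, beside 16.4% of all features, and below them in 3, beside 18.1%. Values above 0 were found in 16 genes and below 0 in 19, and in all features 49.9% were above 0. When libraries were scaled by their reads over all categories, 11 members were above 0 and the median over all features was −0.02.

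**Figure D1:**
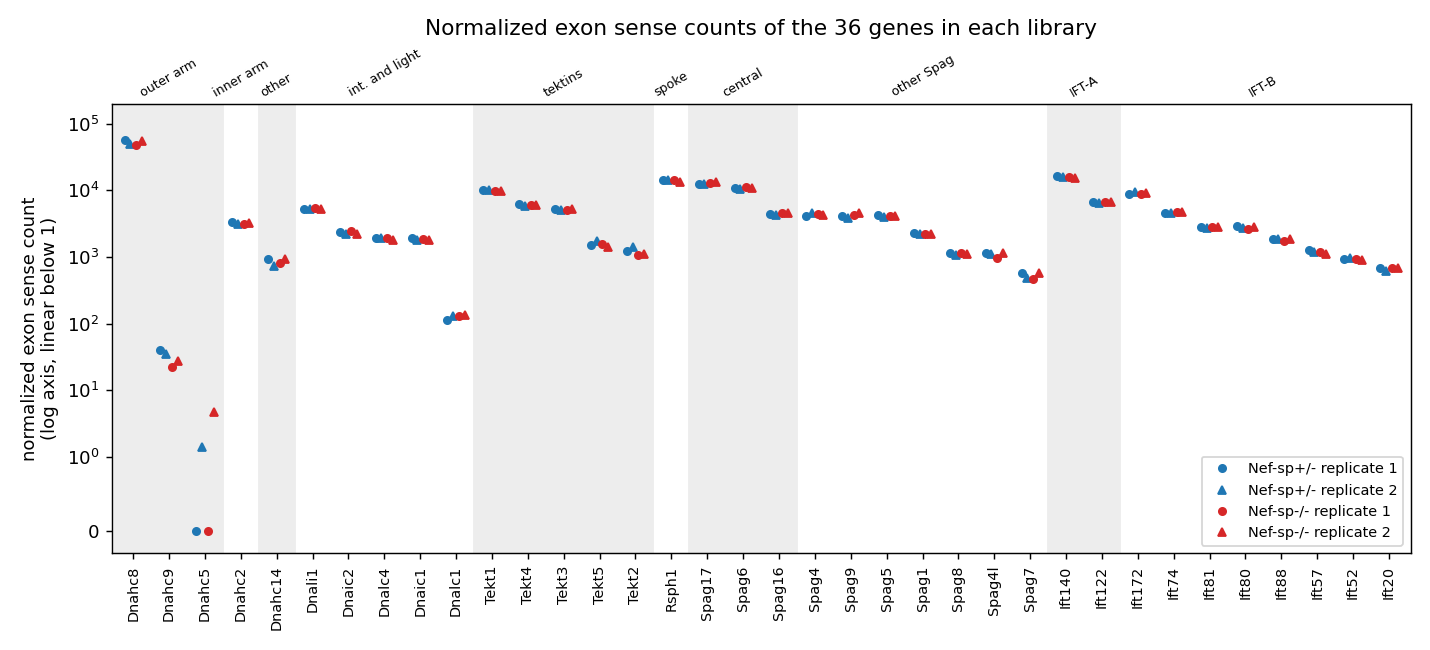
Normalized exon sense counts of the 36 genes in each of the 4 libraries (vertical axis, logarithmic above 1), grouped by role. The libraries of each gene lie close together except in Dnahc9, with 21.9 to 40.3 counts, and Dnahc5, with 0 to 4.73, and heights of different genes are not comparable because the counts are not divided by length.

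**Figure D2:**
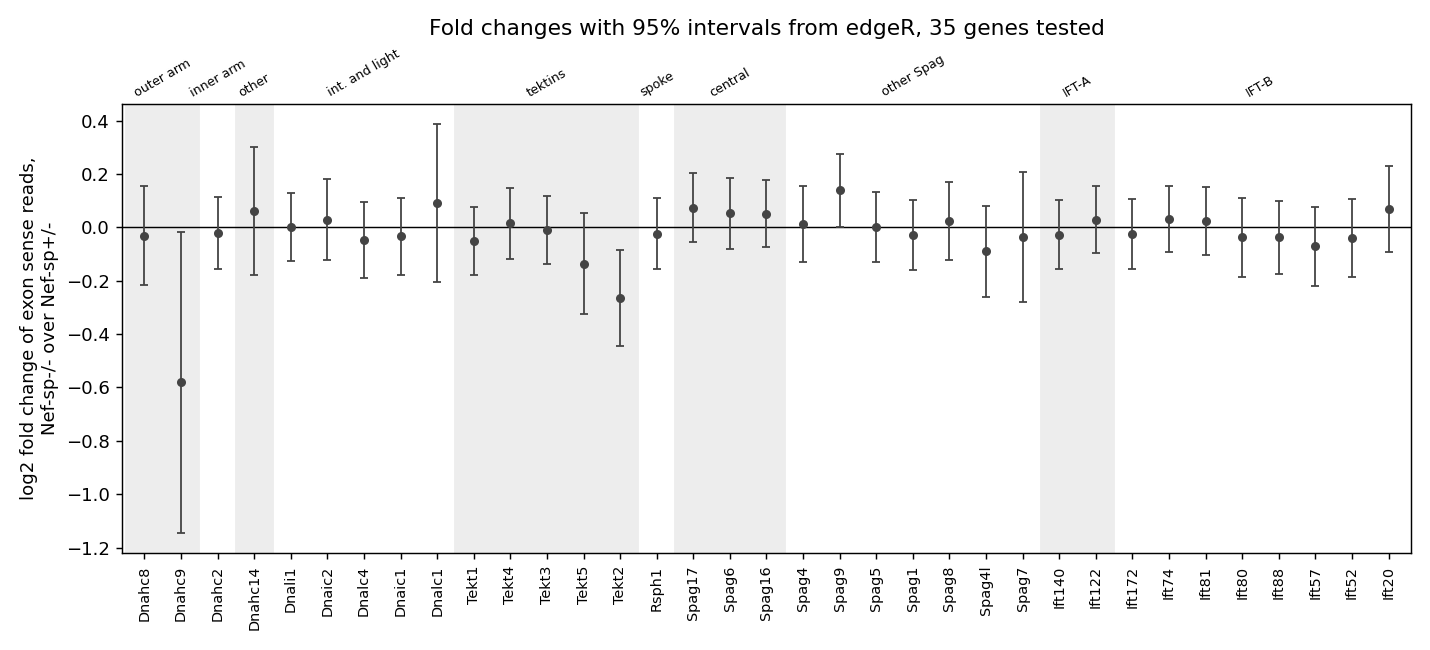
Log2 fold changes of Nef-sp-/- over Nef-sp+/- for the 35 tested genes, with 95% intervals from edgeR as bars. The bars of 32 genes cross the line at 0, among them that of Tekt5 (−0.14). Those of Dnahc9 (−0.58), Tekt2 (−0.27) and Spag9 (0.14) do not cross it.

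The levels of the members within the testis spanned a far wider range than any difference between genotypes. To compare genes, the normalized count was divided by the length of annotated exon, and the mean ± SD over the 4 libraries of both genotypes is given. Rsph1, a protein of the radial spoke head, had the highest level with 12036 ± 313 per kilobase (n = 4). The next was Tekt1 with 6166 ± 136 per kilobase (n = 4), followed by Tekt4 with 3950 ± 108 and Dnahc8 with 3575 ± 285 per kilobase (n = 4 each), whose ranges overlapped. Tekt3 (2960 ± 46.0), Dnali1 (2482 ± 44.6), Spag6 (2376 ± 77.2) and Ift140 (2105 ± 36.6 per kilobase, n = 4 each) came after them, each without overlap with its neighbours. The ranges of Ift74 (1738 ± 22.0) and Ift172 (1668 ± 42.3 per kilobase, n = 4 each) overlapped, and Spag17 followed with 1510 ± 48.3. From the rank of Spag4 (895 ± 38.4) to that of Dnalc4 (807 ± 30.8 per kilobase, n = 4 each) 7 genes overlapped from each to the next and had no clear order. Between Spag8 (673 ± 20.6) and Ift52 (335 ± 8.22 per kilobase, n = 4 each), neighbours in the order overlapped except at the step from Spag1 (583 ± 12.04) to Ift20 (434 ± 17.3 per kilobase, n = 4 each). At the low end were Dnahc2 with 216 ± 6.43, Dnalc1 with 18.3 ± 1.23, Dnahc9 with 1.94 ± 0.504 and Dnahc5 with 0.0982 ± 0.143 per kilobase (n = 4 each).

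The members were expressed above the middle of the testis transcriptome. The median level was 807 per kilobase over the 35 tested members and 131 over the 9930 tested features with a gene model. The median coefficient of variation over the 4 libraries was 3.2% in the members and 6.34% in those features. As 29 of the 36 members had more than 1000 normalized counts on average, the members were among the more deeply read genes. The order of levels depends on the gene models, and that of Dnahc14 is short for a heavy chain, with 2.393 kb of exon, so its place in the order is uncertain. With the longest transcript as length, the mean of Spag6 was 4483 per kilobase, above Tekt4 with 3950 and Dnahc8 with 3589. That of Ift140 was then 2830, above Dnali1 with 2482, so the order given here is that of 1 choice of length.

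**Figure D3:**
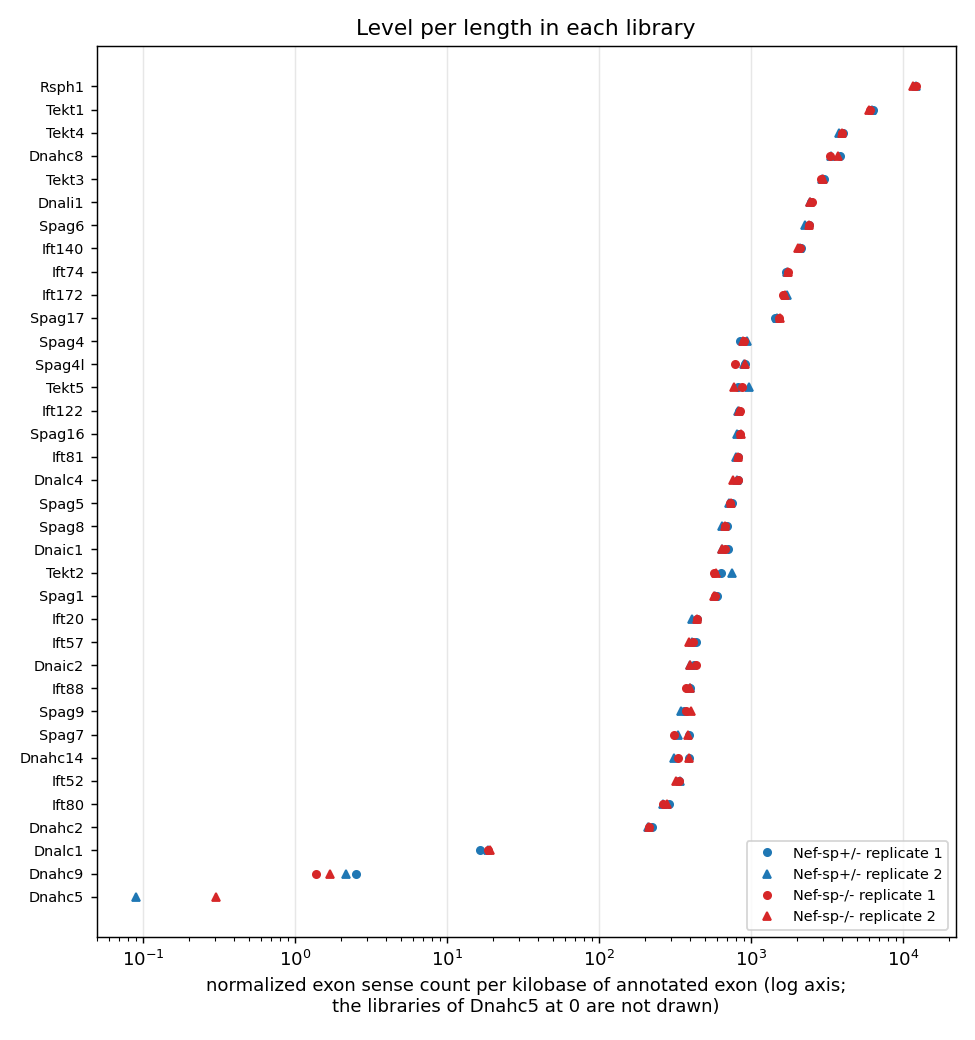
Normalized exon sense count per kilobase of annotated exon (horizontal axis, logarithmic) for each gene and library, ordered by the mean. Values run from 12036 for Rsph1 to 1.94 for Dnahc9 and 0.0982 for Dnahc5, and the libraries of both genotypes lie close together in each row except those of Dnahc9 (1.37 to 2.52) and Dnahc5 (0 to 0.303).

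The heavy chains of the outer arm are motors that differ between cell types. Of the 3 among the members, Dnahc5, Dnahc8 and Dnahc9, Dnahc8 made up most of the reads. The outer-arm heavy chains Dnah11 and Dnah17 had no exon sense feature that the search by symbol found, so they are not part of this comparison. Dnahc8 (chr17:30761299-31012209, plus strand, NCBIM37, 93 exons), the outer-arm heavy chain known from sperm, had normalized counts of 56924 and 49058 in the controls and 48656 and 55008 in the mutants. In each genotype 1 library was high and 1 low, and the genotypes overlapped. The log2 fold change was −0.03 (SE 0.0842, 95% interval −0.22 to 0.15), and it was 0.08 without Nef-sp+/- replicate 1 and −0.13 without Nef-sp+/- replicate 2. Its reads were 24.97% to 28.0% of all reads of the 36 members, and the members together were 1.03% to 1.12% of the exon sense reads. Without Dnahc8 the members made up 0.771% to 0.806%.

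Dnahc9 and Dnahc5 encode outer-arm heavy chains best known from the cilia of airways, and both had few reads. Dnahc9 (chr11:65644784-65982053, minus strand) had 35 and 49 reads in the controls and 19 and 23 in the mutants, or 40.3, 34.5, 21.9 and 27.2 normalized counts in the same order. Both mutants were below both controls, with a log2 fold change of −0.58 (SE 0.255, 95% interval −1.14 to −0.02). The unadjusted p was 0.0441 and the adjusted p 0.954 with edgeR. In the other fits of all libraries, with edgeR or DESeq2, the adjusted p lay between 0.897 and 0.99997. In the level per kilobase, the mean of Dnahc8 was 3575 and that of Dnahc9 1.94.

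Dnahc2 was the heavy chain of the inner arms that the search by symbol found. A search for older symbols through listed synonyms found no further heavy chain. Dnahc2 had normalized counts of 3337 and 3116 in the controls and 3163 and 3188 in the mutants, a log2 fold change of −0.02 (95% interval −0.16 to 0.11). Dnahc14, a heavy chain not placed in a role, had 932 and 742 in the controls and 799 and 932 in the mutants, a log2 fold change of 0.06 (95% interval −0.18 to 0.30). Both Dnahc14 and Dnahc8 were higher in Nef-sp+/- replicate 1 and Nef-sp-/- replicate 2 than in the other two libraries.

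Intermediate chains anchor the outer arm to the doublet, and light chains tune its heavy chains. None of the 5 genes of this group had an unadjusted p below 0.05 with edgeR, and the genotypes overlapped in every one. Dnali1, a light intermediate chain of inner arms, was the most abundant per kilobase, with normalized counts of 5339 and 5249 in the controls and 5403 and 5189 in the mutants and a log2 fold change of 0.00073 (95% interval −0.13 to 0.13). The intermediate chains Dnaic1 and Dnaic2 had log2 fold changes of −0.03 and 0.03. Among the light chains of the outer arm, Dnalc4 had −0.05, and Dnalc1 had the value farthest from 0 in the group, 0.09 (95% interval −0.20 to 0.39). Dnalc1 was also the least abundant of the group per kilobase, with 115 and 130 normalized counts in the controls and 129 and 135 in the mutants.

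Of the 5 tektins, 4 had log2 fold changes below 0 and 0 passed the threshold. Tekt2 (gene ENSMUSG00000028845.9, chr4:125999365-126002932, minus strand, NCBIM37) had 1211 and 1429 normalized counts in the controls and 1088 and 1117 in the mutants. Both mutants were below both controls, and the controls lay further apart than the mutants. The log2 fold change was −0.27 (SE 0.0816, 95% interval −0.45 to −0.09), with means of 1320 ± 154 in the controls and 1102 ± 20.6 in the mutants (SD, n = 2 each). Its unadjusted p was the smallest of the members, 0.0078, and its adjusted p was 0.954 with edgeR.

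The value of Tekt2 depended on the control libraries. Without Nef-sp+/- replicate 1 its log2 fold change was −0.37, and without Nef-sp+/- replicate 2 it was −0.13. Each of these fits leaves 1 control, so its spread within genotype comes from the mutants alone, and no call is taken from it. In the other fits of all 4 libraries, with edgeR or DESeq2, its adjusted p lay between 0.45 and 0.99997. The value was below 0 in all 10 alternative fits, but these reuse libraries in which both mutants were below both controls. Nef-sp+/- replicate 1, the control with less Tekt2, is also the library with the lowest share of elongating spermatid markers, whose log2 fold changes were above 0 in 6 of 6 genes (0.12 to 0.20), and the part of these markers in the result was not tested.

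The other tektins had values nearer 0. Tekt1 (chr11:72158224-72175944, minus strand) had 10266 and 10095 normalized counts in the controls and 9863 and 9781 in the mutants, so that the genotypes did not overlap, with a log2 fold change of −0.05 (95% interval −0.18 to 0.07). Tekt5 had 1497 and 1749 in the controls and 1569 and 1395 in the mutants, a log2 fold change of −0.14 (95% interval −0.32 to 0.05). Its genotypes overlapped, and its value was −0.24 without Nef-sp+/- replicate 1 and −0.01 without Nef-sp+/- replicate 2. Tekt3 had 5269 and 5121 in the controls and 5095 and 5211 in the mutants, a log2 fold change of −0.01. Tekt4 had 6218 and 5826 in the controls and 6050 and 6110 in the mutants, a log2 fold change of 0.01, and it turned to −0.01 when libraries were scaled by their reads over all categories.

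**Figure D4:**
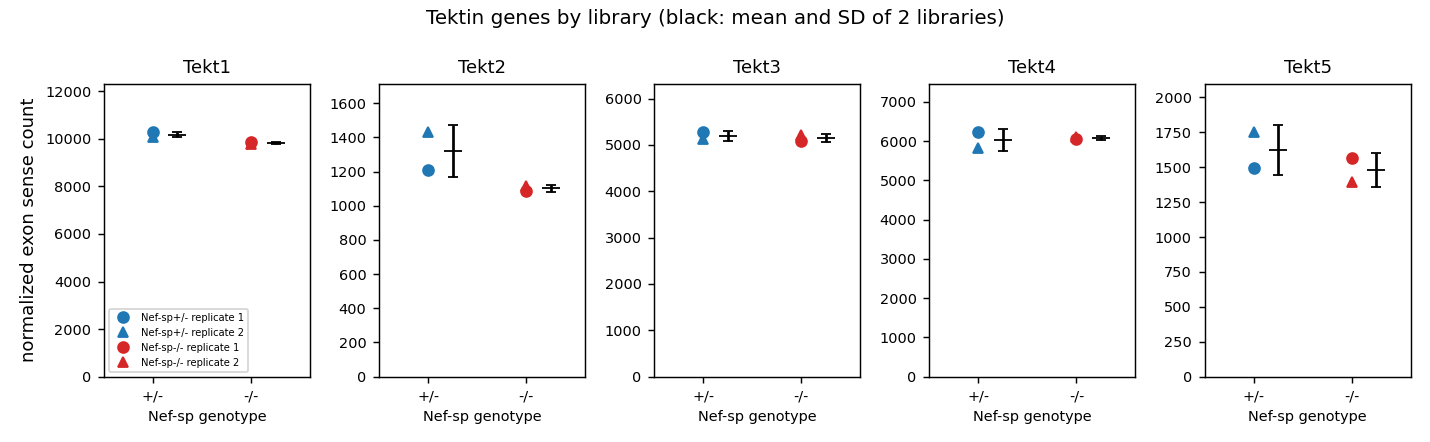
Normalized exon sense counts of the 5 tektin genes (vertical axes, each from 0) in each library by Nef-sp genotype, with the mean and SD of 2 libraries in black. In Tekt2 the mutants, at 1088 and 1117, lie below the controls at 1211 and 1429, while in Tekt3, Tekt4 and Tekt5 the genotypes overlap.

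Tektins and many other ciliary genes are known targets of RFX transcription factors, which bind the X-box, an inverted repeat. Its repeat unit GTTGCC was searched on both strands of the RefSeq promoter windows, 300 bases from 250 before to 50 after the annotated start. It was found in 11 of the 31 members with a window, 35.5%, and in 14.1% of the 27025 genes with a window. A gene was counted if any of its windows held the unit. The members were Dnaic2, Ift140, Ift172, Ift57, Ift88, Spag16, Spag6, Spag8, Tekt1, Tekt2 and Tekt4. Windows were matched to members by symbol alone, and only those of the tektins were located in NCBIM37. Whether the window under the symbol Spag6 belongs to the gene counted here was therefore not checked. The windows of the 3 tektins are shown because they hold the unit and include that of Tekt2, the member with the smallest p. Each is written 5′ to 3′ on the strand of the gene, with the unit or its reverse complement GGCAAC in capitals.
Tekt1, chr11:72175335-72175634, minus strand: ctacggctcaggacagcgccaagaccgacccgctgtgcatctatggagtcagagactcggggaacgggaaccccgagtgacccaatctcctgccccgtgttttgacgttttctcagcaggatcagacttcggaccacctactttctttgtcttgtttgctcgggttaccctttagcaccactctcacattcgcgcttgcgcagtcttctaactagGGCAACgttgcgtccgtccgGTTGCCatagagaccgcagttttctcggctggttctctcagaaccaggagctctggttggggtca
Tekt2, chr4:126002883-126003182, minus strand: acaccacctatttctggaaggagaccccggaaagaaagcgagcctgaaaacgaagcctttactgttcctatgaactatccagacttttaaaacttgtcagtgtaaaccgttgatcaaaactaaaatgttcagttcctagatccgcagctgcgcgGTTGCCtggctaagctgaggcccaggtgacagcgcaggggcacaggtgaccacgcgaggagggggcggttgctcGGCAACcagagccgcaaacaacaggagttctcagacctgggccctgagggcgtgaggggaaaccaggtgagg
Tekt4, chr17:25608285-25608584, plus strand: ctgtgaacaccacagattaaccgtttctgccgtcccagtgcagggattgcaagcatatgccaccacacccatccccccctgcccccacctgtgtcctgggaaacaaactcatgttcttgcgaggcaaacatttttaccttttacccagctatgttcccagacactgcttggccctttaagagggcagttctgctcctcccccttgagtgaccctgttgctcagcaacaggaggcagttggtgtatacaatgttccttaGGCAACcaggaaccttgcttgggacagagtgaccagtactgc
The sequences are those of the RefSeq table for GRCm38.p6, and the positions were found by exact match in NCBIM37, the same assembly as mm9. Tekt1 and Tekt2 have 2 exact units each, and Tekt4 has 1, which lies after the annotated start. Only exact matches were searched and marked. Stretches that differ from the unit by a base, such as gttgct in Tekt2 and Tekt4, stand unmarked. The cAMP response element TGACGTCA was in Ift57 and Spag4 and in 2.03% of all genes with a window. The forkhead motif GTAAACA was in Tekt3 and in 4.05% of those genes, and both were searched on either strand. A match is a run of letters and not a measured binding site.

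Radial spokes pass signals from the central apparatus to the dynein arms. Rsph1 was the only Rsph symbol, with normalized counts of 14076 and 14171 in the controls and 14310 and 13483 in the mutants. The mutants lay on both sides of the controls, and the log2 fold change was −0.02 (SE 0.0601, 95% interval −0.16 to 0.11).

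Spag6, Spag16 and Spag17 encode proteins of the central apparatus, and in all 3 both mutants were above both controls by a small margin, as in 16.4% of all features. Spag17 had 12321 and 12664 normalized counts in the controls and 13081 and 13223 in the mutants, a log2 fold change of 0.07 (95% interval −0.05 to 0.20). Spag6 had 10966 and 10307 in the controls and 11066 and 10985 in the mutants, a log2 fold change of 0.05 (95% interval −0.08 to 0.18). Spag16 had 4459 and 4312 in the controls and 4525 and 4558 in the mutants, also with 0.05 (95% interval −0.08 to 0.18). The intervals of all 3 included 0, and their unadjusted p with edgeR was 0.227, 0.405 and 0.394. Their values were above 0 in the 10 alternative fits. These reuse libraries in which both mutants were above both controls, so the sign adds no support. Spag6 shares 0.760% of its stretches of 50 bases with BC061194, and reads of that part cannot be told apart, which also holds for 0.640% of Dnalc1 and 0.691% of Spag7.

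The other 7 Spag genes share the prefix of sperm-associated antigens and are not all parts of the axoneme. Spag9, a scaffold of JNK signaling also known as JIP4, had 4064 and 3900 normalized counts in the controls and 4215 and 4546 in the mutants. Both mutants were above both controls, and the mutants differed from each other by more than the controls did. The log2 fold change was 0.14 (SE 0.0623, 95% interval 0.00063 to 0.28), and the unadjusted p was 0.0491 and the adjusted p 0.954 with edgeR. In the other fits of all libraries, with edgeR or DESeq2, the adjusted p was 0.939 to 0.99997.

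Spag4 and Spag4l (now Sun5) encode SUN-domain proteins of the nuclear envelope. Spag4, whose level per kilobase overlapped that of Spag4l, had 4078 and 4523 normalized counts in the controls and 4376 and 4309 in the mutants, with a log2 fold change of 0.01 (95% interval −0.13 to 0.16). Spag4l had 1134 and 1110 in the controls and 974 and 1132 in the mutants, a log2 fold change of −0.09 (95% interval −0.26 to 0.08), and only Nef-sp-/- replicate 1 was low. Spag1, an assembly factor of dynein arms, had a log2 fold change of −0.03, Spag5, a spindle protein also called astrin, one of 0.0011, Spag8 one of 0.02 and Spag7 one of −0.04. In Spag7, the replicates differed by 0.24 in the controls and 0.29 in the mutants on the log2 scale, and the higher libraries were again Nef-sp+/- replicate 1 and Nef-sp-/- replicate 2.

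The IFT-A complex returns material from the tip of the flagellum to its base. Ift140, with 16206 and 15972 normalized counts in the controls and 16022 and 15550 in the mutants, had a log2 fold change of −0.03 (95% interval −0.16 to 0.10). Ift122 had 6685 and 6514 in the controls and 6790 and 6673 in the mutants, and a log2 fold change of 0.03 (95% interval −0.10 to 0.16). In both genes the genotypes overlapped.

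The IFT-B complex carries material towards the tip, and its 8 genes had log2 fold changes between −0.07 and 0.07, with 0 called and 0 with an unadjusted p below 0.05 by edgeR. Ift172, the largest subunit, had 8898 and 9307 normalized counts in the controls and 8785 and 9088 in the mutants, a log2 fold change of −0.03 (95% interval −0.16 to 0.10). Ift57 had the value farthest from 0, −0.07 (95% interval −0.22 to 0.08), with 1253 and 1175 in the controls and 1184 and 1123 in the mutants. The genotypes overlapped in both genes.

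Ift20, the subunit that also resides at the Golgi, and Ift74 were the 2 of 8 IFT-B genes with both mutants above both controls, as in 16.4% of all features. Ift20 had 672 and 622 normalized counts in the controls and 678 and 673 in the mutants, a log2 fold change of 0.07 (95% interval −0.09 to 0.23). Ift74 had 4556 and 4576 in the controls and 4656 and 4675 in the mutants, a log2 fold change of 0.03 (95% interval −0.09 to 0.16), and had the smallest coefficient of variation of the 36 genes, 1.27%. The remaining core subunits Ift52, Ift80, Ift81 and Ift88 had log2 fold changes of −0.04, −0.04, 0.02 and −0.04, and the genotypes overlapped in each.

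Reads in introns come from transcripts that are not yet spliced, or from other transcripts that overlap the intron. Of the 36 genes, 30 had an intron sense feature and 21 of these passed the filter. No member had an adjusted p below 0.05 with edgeR or DESeq2 (0.0294% of the 3403 intron features tested did with edgeR), and 0 had an unadjusted p below 0.05, where 2.35% of all did (1.2% lower and 1.15% higher in the mutants). The log2 fold changes ran from −0.23 to 0.29 with a median of 0.06, 12 above 0 and 9 below (52.1% of all intron features were above 0), and all 21 intervals included 0. Both mutants were below both controls in 4 genes, Dnahc2, Ift122, Spag1 and Spag4, and above them in Dnali1, where 14.5% and 13.5% of all intron features were so. Their intron log2 fold changes were −0.11, −0.14, −0.08, −0.19 and 0.29 in this order, and those of their exons −0.02, 0.03, −0.03, 0.01 and 0.00073.

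The share of intron reads differed between genes far more than between genotypes. In Ift80, intron reads were 16.6% and 18.3% of its sense reads in the controls and 18.7% and 17.7% in the mutants, the highest share of the 30 genes. Pooled over libraries, Spag17, Tekt5 and Spag4l followed with 9.20%, 8.94% and 8.80%. At the other end Dnahc8 had 0.392%, Ift140 0.114% and Tekt1 0.0274%, although the annotated introns of Dnahc8 span 236 kb. The median of the 30 genes was 1.23%, and that of 6441 genes with both kinds of feature was 1.5%. The shares count reads and are not divided by intron length.

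**Figure D5:**
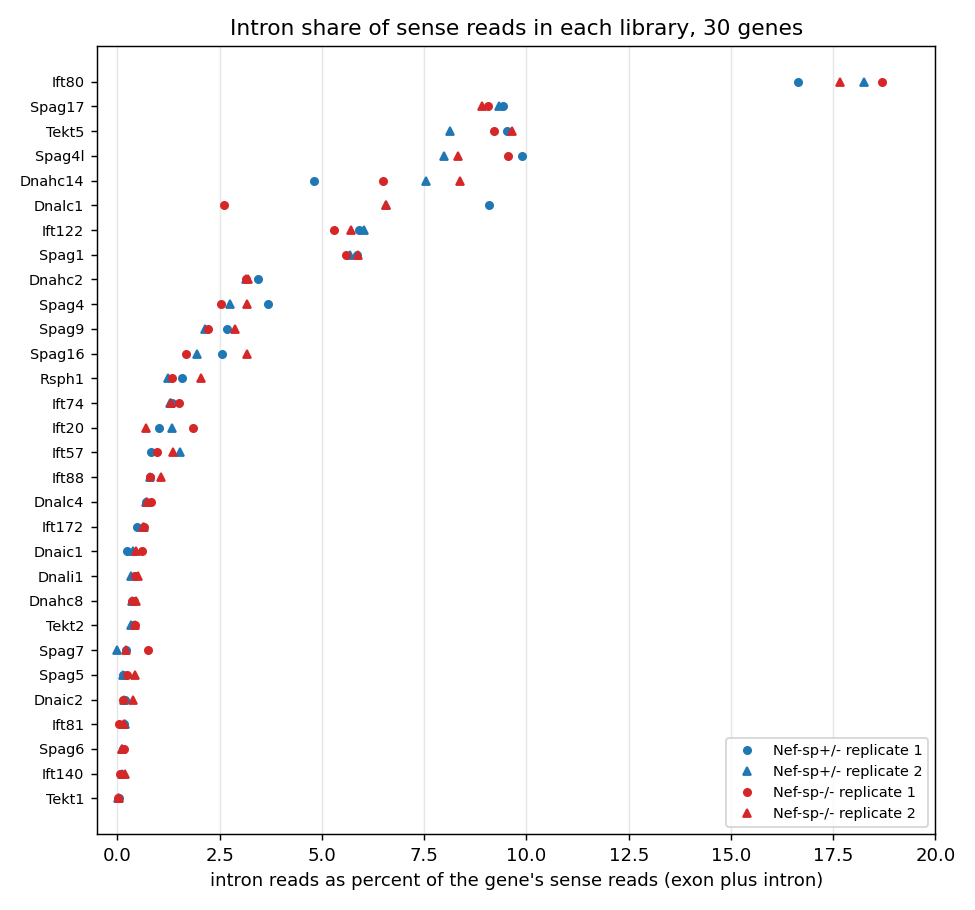
Intron reads as a percentage of the sense reads of each gene (exon plus intron) in each library, for the 30 genes with both features, ordered by the pooled share. Ift80 stands apart at 16.6% to 18.7%, and genes with few intron reads such as Dnalc1, with 3 to 13, scatter widely between libraries.

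The same machinery uses proteins that the rule on symbols did not pick, and 59 such genes were examined. They were IFT subunits with other names, IFT motors, the BBSome (an adaptor of IFT cargo), further dynein chains, assembly and docking factors of the arms, the links between doublets, other central apparatus genes and the transcription factors of ciliary genes. All 59 passed the filter, and 0 had an adjusted p below 0.05 with edgeR or DESeq2. Log2 fold changes ran from −0.32 to 0.17 with a median of 0.0038, 30 above 0 and 29 below. Both mutants were above both controls in 8 genes and below them in 10, beside the 16.4% and 18.1% of all features.

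An unadjusted p below 0.05 with edgeR was found in 3 of these 59 genes, beside 4.8% of all features. Rfx1, a factor of the family that binds the X-box, had 1272 and 1339 normalized counts in the controls and 1179 and 908 in the mutants, a log2 fold change of −0.32 (SE 0.102, unadjusted p = 0.0088, adjusted p = 0.954). Nef-sp-/- replicate 2 was the lowest, and without it the log2 fold change was −0.14. Foxj1, the main activator of motile cilium genes, had 2484 and 2394 in the controls and 2210 and 2228 in the mutants, a log2 fold change of −0.14 (SE 0.0588, unadjusted p = 0.0424, adjusted p = 0.954 with edgeR). Txndc3 (now Nme8), a dynein chain with thioredoxin domains, had 3511 and 3782 in the controls and 4219 and 4004 in the mutants, a log2 fold change of 0.17 (SE 0.063, unadjusted p = 0.02, adjusted p = 0.954 with edgeR).

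By group, the BBSome had 6 of 7 genes above 0 with a median log2 fold change of 0.09. In Bbs4, Bbs7, Bbs9 and Ttc8 both mutants were above both controls, and in Bbs1 both were below. Of all features, 49.9% were above 0, 16.4% had both mutants above both controls and 18.1% had both below. The ciliary transcription factors had 4 of 5 below 0 with a median of −0.06, with Rfx3 at 0.02. In Rfx1, Rfx2 and Foxj1 both mutants were below both controls. Of the 12 IFT subunits with other names, 4 were above and 8 below 0, and of the 9 IFT motors 7 were above and 2 below. The dynein arm assembly factors had 3 above and 5 below, the docking factors 1 and 3, the links between doublets 4 and 4, the further dynein chains 3 and 0, and the other central apparatus genes 1 and 2. Without Nef-sp+/- replicate 1, the log2 fold change of Rfx1 was −0.36. That of the IFT motor heavy chain Dync2h1 was 0.25 in this fit and 0.09 with all libraries.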

How the data were processed

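The deposited raw counts were made by the authors from adapter-trimmed reads that matched mm9 perfectly, summed by feature, annotation category and strand with in-house tools. How reads with several matches or across exon junctions were counted, and the versions used, are not given in the sources used here. A mean normalized signal, log2 fold changes and p-values of their DESeq2 comparison were also deposited by the authors and were not used.

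Counts were fitted with the quasi-likelihood test of edgeR 4.0.16 in R 4.3.3 (TMM, expression filter with a minimum count of 10, no covariates), separately for 10728 gene exon sense and 3403 gene intron sense features, with Benjamini-Hochberg adjustment within each category and a threshold of 0.05. The SE is the absolute log2 fold change over the square root of F. Other settings tried were DESeq2 1.42.0, its size factors within edgeR, scaling to the reads of all categories in place of TMM, dropping the filter, 10 or more counts required per library, a replicate block, and omission of each library. Exon lengths, coordinates and stretches of 50 bases shared between genes came from GENCODE vM1 on NCBIM37, and promoter windows from RefSeq. The replicates of each genotype differed by more than counting noise (chi-square per degree of freedom 8.53 in Nef-sp+/- and 3.52 in Nef-sp-/-), so each library counted as 1 sample.

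The members and lists were chosen with earlier results of these data known. Named by rule were, in each role group, the member with the highest count and that with the largest absolute log2 fold change, all tektins, members and partners with an unadjusted p below 0.05, and members below the filter. All other genes were named after their values were seen.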

Additional observations from a re-analysis of the deposited data

How the results depend on the processing

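The number of exon sense features called was 1, 2 with DESeq2, and 1 to 252 when a library was left out (41 without Nef-sp+/- replicate 1 and 252 without Nef-sp+/- replicate 2). The members called were 0 in every fit of all 4 libraries and 0 to 1 with a library left out, and the partners called were 0 and 0 to 2. Members with an unadjusted p below 0.05 were 3, 1 with DESeq2 and 0 to 4 with a library left out (0 without Nef-sp-/- replicate 1). Their median log2 fold change was −0.02, −0.046 with library size over all categories and −0.032 to 0.021 with a library left out. Among intron features, 1 member had an unadjusted p below 0.05 with edgeR without the filter (Spag5), and 0 were called in any fit of all 4 libraries. The Nef-sp log2 fold change ranged from −2.11 to −1.83 with a library left out. The median level per kilobase of the 36 members, 771, was 900.5 with the longest transcript as length.

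The sign of some small values was not fixed. With library size over all categories, Dnali1 was at −0.024, Spag4 at −0.011 and Tekt4 at −0.010. With a library left out, the log2 fold change ran from −0.071 to 0.028 in Dnahc2, −0.13 to 0.080 in Dnahc8, −0.029 to 0.033 in Dnali1, −0.058 to 0.0066 in Ift172, −0.067 to 0.023 in Rsph1, −0.058 to 0.091 in Spag4, −0.032 to 0.0098 in Tekt3 and −0.032 to 0.062 in Tekt4. The cause of these changes was not tested.

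The labels do not say that the replicate numbers pair animals, and the libraries that share a number had deviations correlated at −0.08 over exon and −0.14 over intron features. With the replicate block, 1 member had an unadjusted p below 0.05, 0 members were called, and the calls over all features were 1 in exons and 1 in introns, and it changed no other call. With crossed numbers, a fit added for introns after the correlation was seen, 2 intron features were called, 0 of them members.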

Other observations

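Genes of the same families carry older symbols in the annotation and so escaped the rule. The 8 found were 1500035H01Rik (Ift46), 1700019E19Rik (Ift43), Rabl4 (Ift27), Rabl5 (Ift22), 1700027N10Rik (Rsph9), Rshl1 (Rsph6a), Rshl2a (Rsph3a) and Rshl2b (Rsph3b). None was called with edgeR, 0 had an unadjusted p below 0.05, and their log2 fold changes ran from −0.08 to 0.10, 4 above 0 and 4 below. The value of 0.10 was that of 1500035H01Rik, a subunit of IFT-B, which had 1631 and 1636 normalized counts in the controls and 1753 and 1757 in the mutants (95% interval −0.03 to 0.23). The radial spoke genes besides Rsph1 lay between −0.06 (Rshl1) and 0.03 (1700027N10Rik).

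Antisense reads marked a few of the loci. Dnahc11, an outer-arm heavy chain with no exon sense feature here, had 37 and 86 exon antisense reads in the controls and 58 and 45 in the mutants, or 1.79 and 2.50 against 2.75 and 2.18 RPM relative to the library totals. In Spag9, intron antisense reads were 639 and 905 in the controls and 560 and 510 in the mutants, or 30.9 and 26.3 against 26.5 and 24.7 RPM relative to the library totals, where the genotypes overlapped. They were 86.3% of its intron reads on either strand, so that its introns were read mainly from the opposite strand. In Dnahc8 the antisense share of intron reads was 46.7%, and in Dnali1 the antisense share of exon reads was 1.65%. In Ift140, Rsph1 and Spag17 exon antisense reads were below 0.1% of exon reads.

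Dnahc8 weighed on the mean chi-square between replicates. This measure grows with the number of reads, and Dnahc8 had 207747 over the 4 libraries. Its coefficient of variation was 7.98%, above the median of 3.2% over the tested members and below the 12.7% of Tekt2. The mean chi-square per member between replicates was 36.1 in the Nef-sp+/- and 14.2 in the Nef-sp-/- pair, and 10.3 and 3.38 without Dnahc8, where all exon features had 8.52 and 3.52. The difference of Nef-sp+/- replicate 1 from replicate 2 and that of Nef-sp-/- replicate 2 from replicate 1 had a Pearson r of 0.49 and a Spearman rho of 0.29 over the 35 tested members, as a description across genes that share the same 4 libraries. Over 9930 features with a gene model the values were 0.08 and 0.13. Exon length had an r of 0.14 with the first difference and 0.21 with the second over the members.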
